A study of Mus musculus with 6 samples.

Results

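The genes described here encode muscle-type actins and proteins that bind or move actin filaments: the actins Actc1, Acta2 and Actg2, transgelin (Tagln), the calponins Cnn1, Cnn2 and Cnn3, the tropomyosins Tpm1 and Tpm2, and the myosin regulatory light chain Myl9. Their RNA was measured in mouse embryonic stem cells that were either Gsk-3a-/-; Gsk-3b-/-, called DKO below, or wild type, labelled E14K and called WT. The DKO cells lack both genes of glycogen synthase kinase-3, a kinase of the Wnt and insulin pathways. Both genotypes were grown without feeder cells on gelatin, in high-glucose medium holding 15% serum and leukaemia inhibitory factor at 1000 units/ml, and no treatment separated them. Total RNA from 3 samples of each genotype was hybridised to 6 Affymetrix arrays of 45101 probe sets, groups of short probes designed to report a transcript, some of which match several transcripts or genes. The labels do not say whether the 3 samples were separate cultures, how many clones the DKO cells came from, or which line the DKO cells were made from, so differences between the lines and effects of the lost genes cannot be told apart.

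Every probe set that the platform annotation gave to exactly 1 of these 10 genes was taken, which made 23 probe sets, out of 45101 in all, and 10 genes out of 18194. The genes were picked by name with results of this same DKO against WT contrast known, so their log2 intensities and differences are a description and carry no test. A probe set entered the fit over the whole array when its log2 intensity reached 4, an intensity of 16, on at least 3 of the 6 arrays. Of the 23 probe sets 16 did so, from 8 genes. The probe sets of Actg2 and Cnn1 did not, nor did 5 others of Acta2, Cnn3, Tpm1 and Tpm2.

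Actins polymerise into thin filaments, tropomyosins lie along these filaments, and myosin pulls on them once its regulatory light chain is phosphorylated. Calponins and transgelin bind the filament and are classical markers of smooth muscle. Many of these genes are known targets of serum response factor (SRF), which binds a DNA element called the CArG box, together with myocardin-related cofactors that are held inactive by unpolymerised actin. Embryonic stem cells are not muscle, and their bulk cytoskeleton is built on the non-muscle actins.

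Most of the contractile genes read lower in DKO than in WT cells. Tagln had the largest measured difference, 12.5-fold lower in DKO, and Acta2, Cnn2, Tpm2 and 2 of the Tpm1 probe sets were 1.88-fold to 3.72-fold lower. Actc1 and Myl9 read under the filter on all 3 DKO arrays and above it on all 3 WT arrays. Cnn3, the gene of the set with the brightest probe sets, read alike in both genotypes, and Actg2 was dim on every array. These are levels in bulk RNA, in which fewer cells expressing a gene and less RNA in each cell cannot be told apart.

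The CArG box begins with CC, ends with GG and has 6 bases between them that are all A or T, so that it reads as the same motif on both strands. It was searched for in RefSeq promoter windows (build GRCm38.p6) that run from 250 bases before to 50 bases after the annotated start of each gene. Windows were found for 8 of the 10 genes, all but Tagln and Actg2. A CArG box was found in 3 of the 8, against 1.81% of the 27025 genes with a window. Allowing 1 mismatch among the 6 inner bases, it was found in 4 of the 8, against 11.3% of all genes. The windows of Cnn1, Cnn3, Tpm1 and Tpm2 held no match to these letters in either form, which says only that the letters are not in this window. The matches are descriptions of sequence and not measured binding sites. The genes were picked as known SRF targets, so a share above that of all genes follows in part from the choice. Nothing is read from these shares.

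The stretches below, each on the gene's own strand, are shown because they carry the matches of the 4 genes, with the motif in capitals. The first 3 are full matches, from chr2:114052888-114052947 (Actc1, minus strand), chr10:79988519-79988578 (Cnn2, plus strand) and chr2:156775278-156775337 (Myl9, plus strand). The last 2 hold 1 mismatch each, from chr19:34255423-34255482 and chr19:34255374-34255432 (Acta2, minus strand).
Actc1: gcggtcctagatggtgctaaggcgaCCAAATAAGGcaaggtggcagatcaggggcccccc
Cnn2: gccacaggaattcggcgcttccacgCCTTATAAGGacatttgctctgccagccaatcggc
Myl9: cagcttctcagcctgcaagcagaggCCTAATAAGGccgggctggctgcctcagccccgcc
Acta2, upstream: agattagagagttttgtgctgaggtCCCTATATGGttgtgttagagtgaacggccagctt
Acta2, downstream: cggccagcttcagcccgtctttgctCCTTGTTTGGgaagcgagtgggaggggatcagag
The motif starts 47 bases before the annotated start of Actc1, 56 before that of Cnn2 and 161 before that of Myl9, and 84 and 34 bases before that of Acta2. Actc1 also held 3 matches with 1 mismatch, and Myl9 held 1.

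The third array of each genotype was unlike the others in its spike-in controls. Their 9 probe sets averaged 10.2 log2 units in DKO replicate 3 and 10.5 in WT replicate 3, against 1.64 to 1.85 in replicates 1 and 2. Replicate 3, with 1 array of each genotype, was therefore handled as a batch of its own in an alternative fit. The main fit held no batch term, so its SEs and p-values do not account for the batch. The batch is inferred from these controls and not named by the labels. The log2 ratio of 3′ to 5′ signal over 3 control transcripts, which reflects how intact the RNA was, came to 2.20 ± 0.32 in DKO cells and 1.98 ± 0.33 in WT cells (SD, n = 3), and it was higher in DKO in all 3 same-numbered pairs, by 0.028, 0.439 and 0.192. Its part in the differences was not tested. Gsk3a had log2 intensities of 7.18, 7.08 and 6.04 in DKO against 8.65, 7.89 and 7.90 in WT, with no overlap (difference -1.38, limma adjusted p = 0.0942, and 0.00646 when replicate numbers were a block). None of the 5 tested Gsk3b probe sets passed by limma (log2 differences from -0.71 to -0.02), and where these probe sets lie relative to the deleted parts is not known here. The cells had the markers of embryonic stem cells: all 14 on the list were measured above the filter, and 0 of them passed by limma (1 at an unadjusted p under 0.05, 0 with the replicate block), against 4.13% of all genes and 10.7% with the block, with the largest difference in Tfcp2l1 (0.74, adjusted p = 0.179).

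Among the actins, Actc1, the cardiac alpha-actin, had intensities of 4, 4 and 4 on the DKO arrays, against 18, 31 and 39 on the WT arrays. All 3 DKO values sat at the lower quartile of the whole array, and all 3 WT values were above the filter, without overlap. The log2 level was 2.00 in DKO and 4.80 ± 0.57 in WT. Since DKO gives only a limit, Actc1 was at least 1.74-fold lower in DKO, and it passed the filter through its WT arrays alone.

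Acta2, the alpha-actin of vascular smooth muscle, was read by 3 probe sets that did not behave alike. The brightest had intensities of 48, 14 and 21 in DKO against 92, 53 and 149 in WT. The highest DKO array lay just below the lowest WT array, and both genotypes were widely spread. The log2 levels were 4.59 ± 0.91 in DKO and 6.49 ± 0.75 in WT (SD, n = 3), a difference of -1.90 (SE 0.50), or -1.83 with the 1 DKO array under the filter set to it. Its identifier carries the suffix _s, which marks probes that match more than 1 transcript, which can belong to related genes, so a share of its signal may come from another actin. The other Acta2 probe sets read 2 to 4 on all 6 arrays, far under the filter.

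Actg2, the gamma-actin of enteric smooth muscle, read 4, 3 and 4 in DKO against 3, 3 and 4 in WT. It was therefore not measured above the filter in either genotype. Acta1, the skeletal alpha-actin and no member of the set, was also under the filter on all 6 arrays, at 5, 4 and 5 in DKO against 9, 7 and 10 in WT.

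The non-muscle actins showed much smaller differences. Actb, beta-actin, had log2 levels of 12.52 ± 0.21 in DKO and 12.65 ± 0.10 in WT (SD, n = 3), a difference of -0.13 (SE 0.23, limma adjusted p = 0.903). Actg1, gamma-actin, stood at 12.20 ± 0.21 in DKO and 12.34 ± 0.11 in WT, a difference of -0.14 (SE 0.23, limma adjusted p = 0.899). The arrays of the genotypes overlapped for both genes. The Actg1 probe set carries the suffix _s, like that of Acta2, so its signal may also be shared with another actin.

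**Figure D1:**
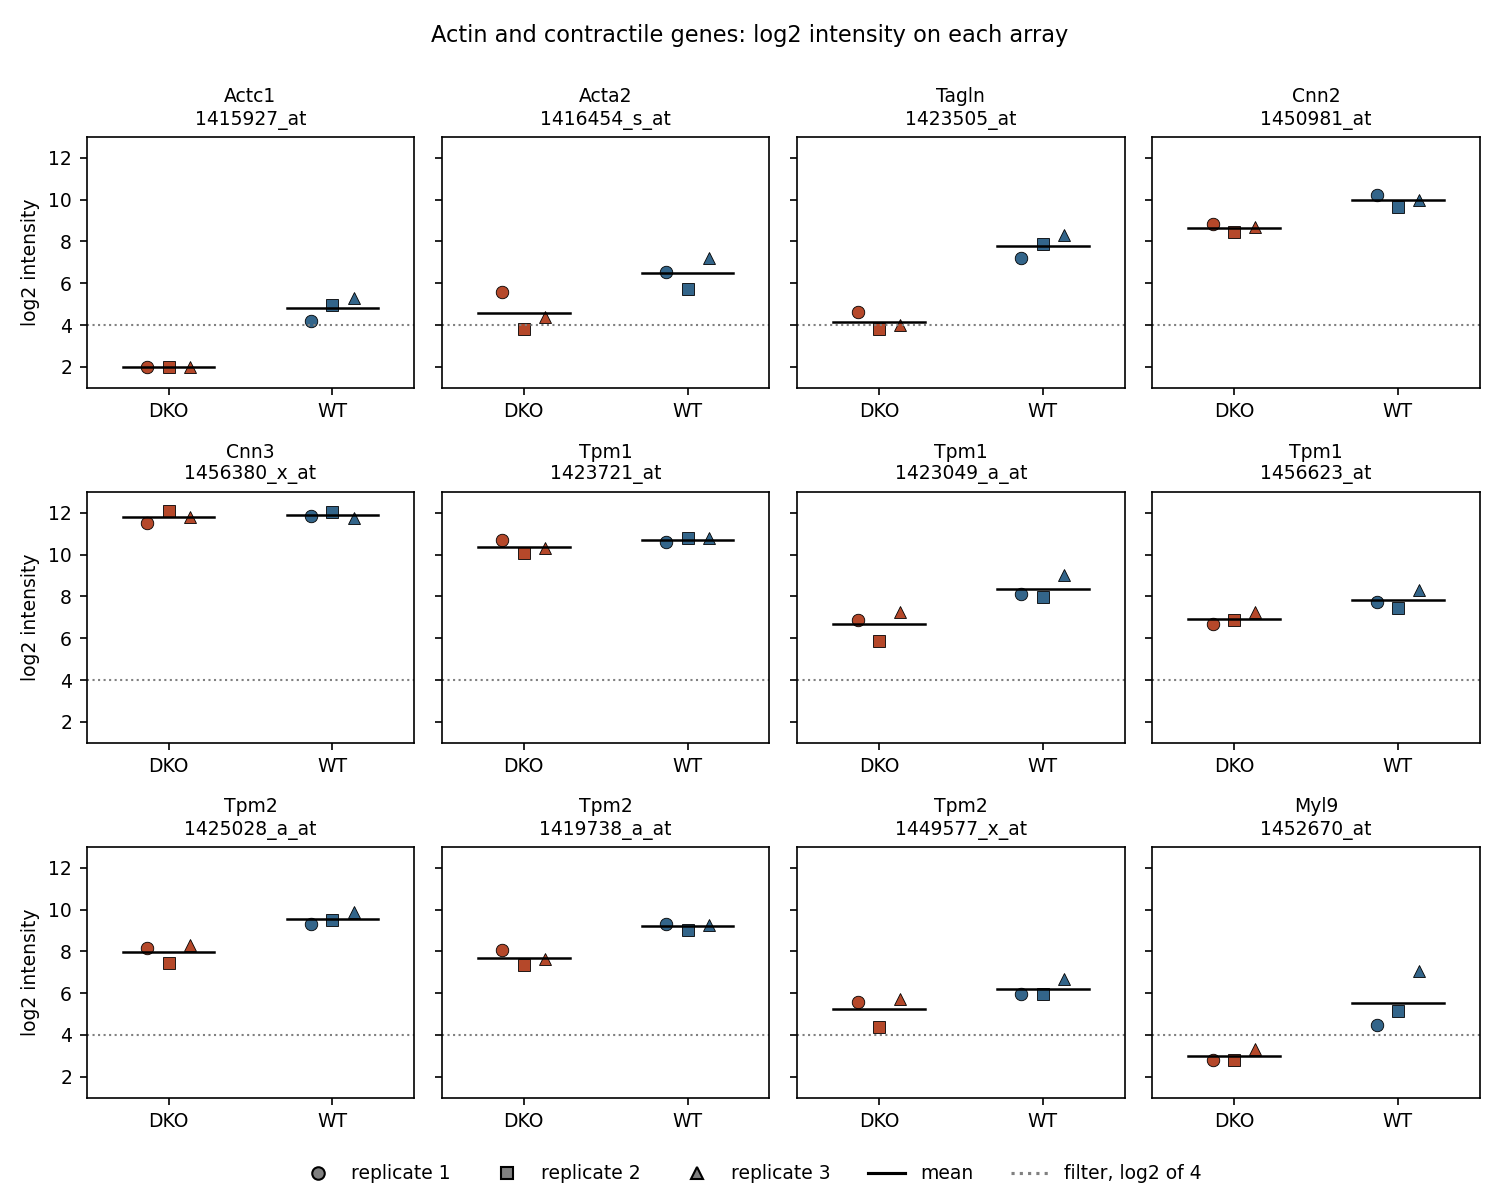
Log2 intensity (vertical axis) on each of the 3 DKO and 3 WT arrays for 12 tested probe sets of the contractile genes, with the mean as a bar, the replicate number as the symbol and the filter at 4 as a dotted line. For Cnn3 only the brightest of its 5 tested probe sets is drawn; DKO arrays lie below WT arrays in every panel except those of Cnn3 and of the brightest Tpm1 probe set.

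Tagln, transgelin or SM22-alpha, an actin-binding protein of smooth muscle, had the largest difference among the measured genes. Its intensities were 25, 14 and 16 in DKO against 148, 235 and 313 in WT. Every WT array was several times brighter than the brightest DKO array, and the DKO arrays lay around the filter. The log2 levels were 4.15 ± 0.44 in DKO and 7.79 ± 0.55 in WT (SD, n = 3), a difference of -3.64 (SE 0.34), or -3.58 with the 1 DKO array under the filter set to it. Its paralogues stayed closer to 0: Tagln2, the non-muscle form, differed by -0.41 (SE 0.41) and Tagln3, the neuronal form, by 0.68 (SE 0.25), and neither passed by limma (adjusted p = 0.803 and 0.267).

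The 3 calponins differed from one another. Cnn1, the smooth muscle calponin, read 4, 4 and 4 in DKO against 16, 11 and 11 in WT, so that 1 WT array alone reached the filter and no fold is given. Cnn2, the widely expressed h2-calponin, had intensities of 450, 352 and 414 in DKO against 1210, 809 and 1027 in WT. The DKO arrays were close together and all well below the WT arrays. The log2 levels of Cnn2 were 8.66 ± 0.18 in DKO and 9.97 ± 0.29 in WT, a difference of -1.31 (SE 0.25), 2.48-fold lower in DKO.

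Cnn3, the acidic calponin, is also found in non-muscle cells. Its 5 tested probe sets had intensities between 730 and 4307, and the arrays of the genotypes overlapped in all 5. All but 1 of them, the brightest included, carry the suffix _x, which marks probes that may cross-hybridise. The brightest read 2946, 4307 and 3580 in DKO against 3738, 4208 and 3508 in WT. The log2 differences of the 5 ran from -0.12 to 0.16, each with an SE larger than the difference, and a further probe set read 4 to 6 on all arrays. The SE of these differences ranged from 0.23 to 0.32 log2 units.

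**Figure D2:**
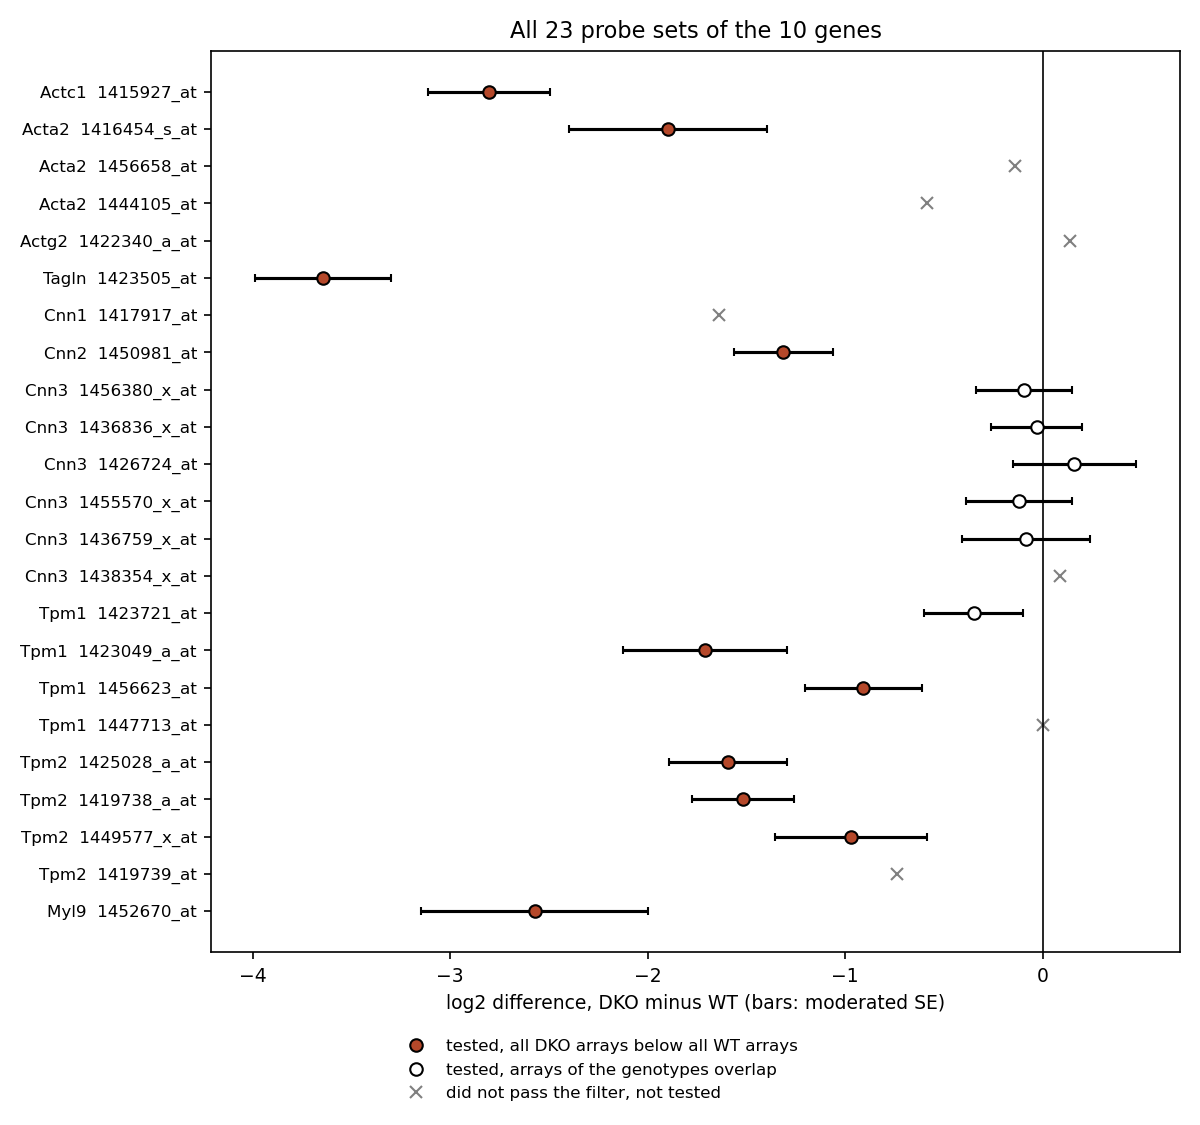
Log2 difference, DKO minus WT (horizontal axis), for all 23 probe sets, with the moderated SE for the 16 tested ones; filled points have all DKO arrays below all WT arrays, open points overlap, and crosses did not pass the filter. Tagln lies farthest to the left at -3.64 and the Cnn3 probe sets lie around 0; the points of Actc1 and Myl9 are fitted differences against dim DKO arrays.

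Tpm1, alpha-tropomyosin, makes muscle and non-muscle proteins by alternative splicing, and its probe sets gave different sizes of difference. The brightest read 1683, 1082 and 1285 in DKO against 1541, 1784 and 1763 in WT. One DKO array was within the WT range, and the log2 difference was -0.35 (SE 0.25). A dimmer probe set, whose suffix _a marks alternative transcripts of a gene, read 119, 58 and 153 in DKO against 278, 254 and 523 in WT. Here the genotypes were apart, with a log2 difference of -1.71 (SE 0.41), 3.27-fold lower in DKO. A probe set of like brightness with no such suffix read 101, 118 and 152 in DKO against 212, 176 and 321 in WT, also apart, with a difference of -0.91 (SE 0.30). Where each probe set lies in the gene was not known here, and the difference between them was not tested. The last Tpm1 probe set read 2 on all 6 arrays.

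Tpm2, beta-tropomyosin, was lower in DKO on every probe set above the filter. The brightest read 289, 176 and 316 in DKO against 637, 728 and 952 in WT. The next brightest read 266, 164 and 198 in DKO against 635, 524 and 610 in WT. Both carry the suffix _a, and in both the highest DKO array lay far below the lowest WT array. Their log2 differences were -1.59 (SE 0.30) and -1.52 (SE 0.26), 3.02-fold and 2.86-fold lower in DKO. A dimmer one, with the suffix _x seen for Cnn3, read 48, 21 and 52 in DKO against 62, 63 and 101 in WT. It kept the genotypes apart by a small gap, with a difference of -0.97 (SE 0.38). The last Tpm2 probe set read 11, 7 and 8 in DKO against 19, 10 and 15 in WT, and was not tested.

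The remaining tropomyosins, Tpm3 and Tpm4, which serve mainly non-muscle filaments, differed by -0.09 and -0.02 log2 units. Both had SEs of at least 0.23, and neither passed by limma (adjusted p = 0.943 and 0.995).

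Myl9, the regulatory light chain of smooth muscle and non-muscle myosin, read 7, 7 and 10 in DKO against 22, 35 and 134 in WT. All DKO arrays were under the filter, and WT replicate 3 was far brighter than the other WT arrays. Myl9 was at least 2.93-fold lower in DKO, and like Actc1 it passed the filter through WT alone. Without WT replicate 3 the limit was at least 1.73-fold. The fitted log2 difference was -2.57 (SE 0.58), and -1.82 without that array.

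Other regulatory light chains were near level or higher in DKO. Myl12a and Myl12b, which encode the closely related non-muscle regulatory chains, differed by -0.17 and 0.03 log2 units (limma adjusted p = 0.898 and 0.98). Myl7, the regulatory light chain of the cardiac atrium, rose in DKO. Its intensities were 117, 68 and 178 in DKO against 22, 11 and 25 in WT. Every DKO array was brighter than every WT array by a wide gap. The log2 levels were 6.81 ± 0.70 in DKO and 4.19 ± 0.64 in WT (SD, n = 3), a difference of 2.62 (SE 0.42, limma adjusted p = 0.0112), and the call was lost when DKO replicate 1 was left out (limma adjusted p = 0.1). The call was also lost with no filter (limma adjusted p = 0.151) and by the linear model without moderation (adjusted p = 0.229).

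Over the set, 15 of the 16 tested probe sets had a log2 difference below 0, against 52.2% of all 20841 tested probe sets. The 16 include the 5 of Cnn3, which lay around 0, from -0.12 to 0.16. All 11 outside Cnn3 were below 0. The median of the 16 was -1.14, or -0.94 with Actc1 and Myl9 at their limits, against -0.02 over all tested probe sets. The arrays of the genotypes were apart, with DKO lower, in 10 of the 16, from 7 of the 8 genes, against 9.17% of all tested probe sets, and in 0 with DKO higher, against 7.57%. By limma 6 of the 16 passed an adjusted p of 0.05 lower in DKO and 0 higher, against 1.93% and 1.31% of all, or 3.24% in either direction. They belonged to 5 genes, Actc1, Tagln, Cnn2, Tpm2 (2 probe sets) and Myl9, and by gene 2.5% of all passed lower in DKO. With the replicate number as a block 10 of 16 passed lower in DKO, against 5.26% of all, or 9.57% in either direction. Since the genes were chosen with this contrast known, and Actc1 and Myl9 could pass the filter only where they were high, nothing is read from these counts.

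The size of the difference varied between same-numbered arrays. For Tagln it was -2.57, -4.07 and -4.29 log2 units in replicates 1, 2 and 3, and for Acta2 -0.94, -1.92 and -2.83. For Cnn2 the same differences were -1.43, -1.20 and -1.31, a much narrower range. Leaving out Cnn3, 10 of the 11 tested probe sets were below 0 in all 3 pairs. The exception was the brightest Tpm1 probe set, at 0.13 in replicate 1.

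Within replicates 1 and 2 alone, the log2 differences were -3.32 for Tagln, -1.43 for Acta2 and -1.31 for Cnn2. For Actc1 and Myl9 DKO gives a limit only: Actc1 was at least 1.48-fold lower there, and Myl9 at least 1.73-fold. WT replicate 3 was the brightest WT array in 10 of the 16 tested probe sets of the set, against 38.4% of all tested probe sets, ties included. DKO replicate 2 was the dimmest DKO array, or tied for it, in 10 of 16, against 29.6% counted in the same way. The ties were Actc1 (4, 4 and 4 in DKO) and Myl9 (7, 7 and 10), both under the filter.

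**Figure D3:**
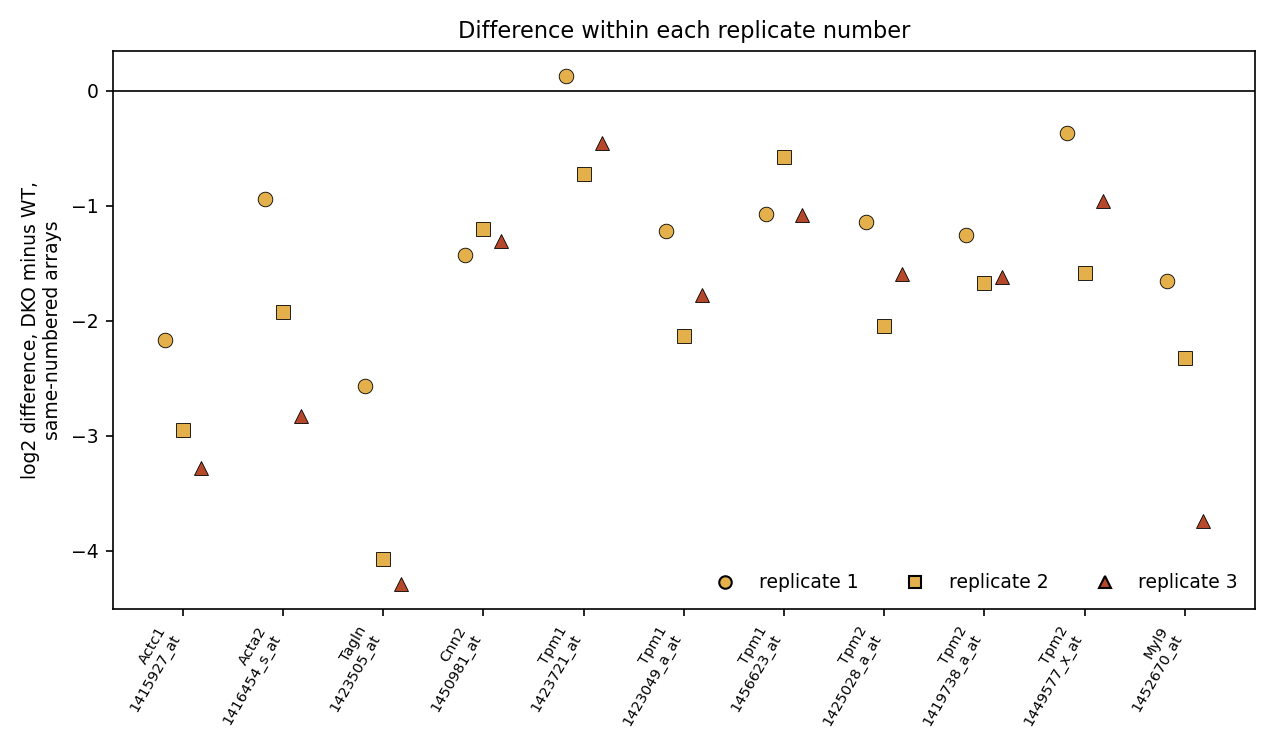
Log2 difference, DKO minus WT, between arrays of the same replicate number (vertical axis) for the 11 tested probe sets of genes other than Cnn3; replicate 3, whose spike-in controls differ, is drawn in red, and the values of Actc1 and Myl9 are against dim DKO arrays. Points lie below 0 except replicate 1 of the brightest Tpm1 probe set, and the spread between pairs is narrow for Cnn2 and wide for Tagln, Acta2 and Myl9.

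The known regulators of these genes did not pass the test, though both Srf probe sets and the tested Mrtfb probe set had all DKO arrays below all WT arrays. Srf read 405, 371 and 382 in DKO against 662, 543 and 468 in WT on its brighter probe set, which carries the suffix _s. The log2 difference was -0.52 (SE 0.24, limma adjusted p = 0.402). Its dimmer probe set differed by -0.88 (adjusted p = 0.146; 0.0417 with the replicate block). Mrtfb, an SRF cofactor sensitive to unpolymerised actin, differed by -0.69 (SE 0.27, adjusted p = 0.312) and its relative Mrtfa by 0.02 (adjusted p = 0.992). Myocd, myocardin, the cofactor of heart and smooth muscle, read 4, 7 and 6 in DKO against 11, 12 and 16 in WT and was not tested. Of 14 tested genes in the list of SRF, its cofactors and regulators of actin assembly, 0 passed by limma (2 at an unadjusted p under 0.05; 1 lower with the replicate block), against 4.13% of all genes and 10.7% with the block. That 1 was Limk2, a kinase that inactivates the actin-severing cofilins, at -1.14 on its brightest tested probe set (adjusted p = 0.104; 0.0129 with the block). The mean of all tested Limk2 probe sets had a limma adjusted p of 0.46 and differed less between the genotypes, by -0.38. The list had a median of -0.09, against -0.0025 over all 10496 genes by the brightest tested probe set. All DKO arrays lay below all WT arrays for 4 of its 14 genes and above for 0, against 9.17% and 7.57% of all tested probe sets.

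Other SRF targets of the cytoskeleton were for the most part near level. Of 23 tested genes, among them those of vinculin (Vcl), filamin A (Flna), zyxin (Zyx) and cofilin (Cfl1), 0 passed by limma, against 4.13% of all genes (2 at an unadjusted p under 0.05; 1 lower with the replicate block). Their median was -0.13. The largest difference was that of Pdlim7, a scaffold protein on actin filaments, at -1.48 (SE 0.35, adjusted p = 0.0614; 0.00284 with the block), with all DKO arrays below all WT arrays.

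Of 12 tested genes of the smooth muscle apparatus outside the set, 1 fell, 0 rose and 11 did not pass by limma, with a median of -0.24, against 2.5% of all genes lower and 1.64% higher in DKO. Of the 12, 2 had an unadjusted p under 0.05. The 1 that fell was Itga8, an integrin chain, which read 6, 8 and 8 in DKO against 54, 21 and 18 in WT. DKO gave only a limit, at least 1.71-fold lower (limma adjusted p = 0.0394). Itga8 passed the filter through its WT arrays alone, so nothing more is read from its call. The call held for 2 of the 6 arrays when each was omitted in turn. It was lost with no filter (limma adjusted p = 0.242) and with a pseudocount of 16 (limma adjusted p = 0.166). Mylk, the myosin light chain kinase, went the other way, at 20, 32 and 19 in DKO against 11, 13 and 15 in WT. Mylk passed the filter through its DKO arrays alone, so WT gave only a limit, at least 1.44-fold higher in DKO. It did not pass by limma (adjusted p = 0.204). Myh11, the smooth muscle myosin heavy chain, Lmod1, Kcnmb1 and Synm were under the filter on all 6 arrays. Of the 12 tested relatives of the actins, tropomyosins, transgelins and light chains, 1 rose (Myl7), 0 fell and 11 did not pass (2 at an unadjusted p under 0.05), with a median of -0.11. With the replicate block the counts of both lists were the same.

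The immediate early genes, which SRF drives with another set of cofactors, had 0 of 10 tested genes past the threshold by limma (1 at an unadjusted p under 0.05; 1 lower with the replicate block), against 4.13% of all genes and 10.7% with the block. Their median was -0.30. The 1 with the block was Fosb, which differed by -1.29 (limma adjusted p = 0.296; 0.00622 with the block). Of 10 tested genes of the TGF-beta pathway, an inducer of smooth muscle genes, 0 passed by limma (2 at an unadjusted p under 0.05; 1 higher with the block), set against the same shares of all genes. With so few genes, counts of 0 or 1 are near those shares. Tgfbr2, a receptor of the pathway, had the largest difference, 1.54 higher in DKO (limma adjusted p = 0.0875, and 0.0177 with the block). In replicates 1 and 2 only, Tgfbr2 was 0.97 higher.

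**Figure D4:**
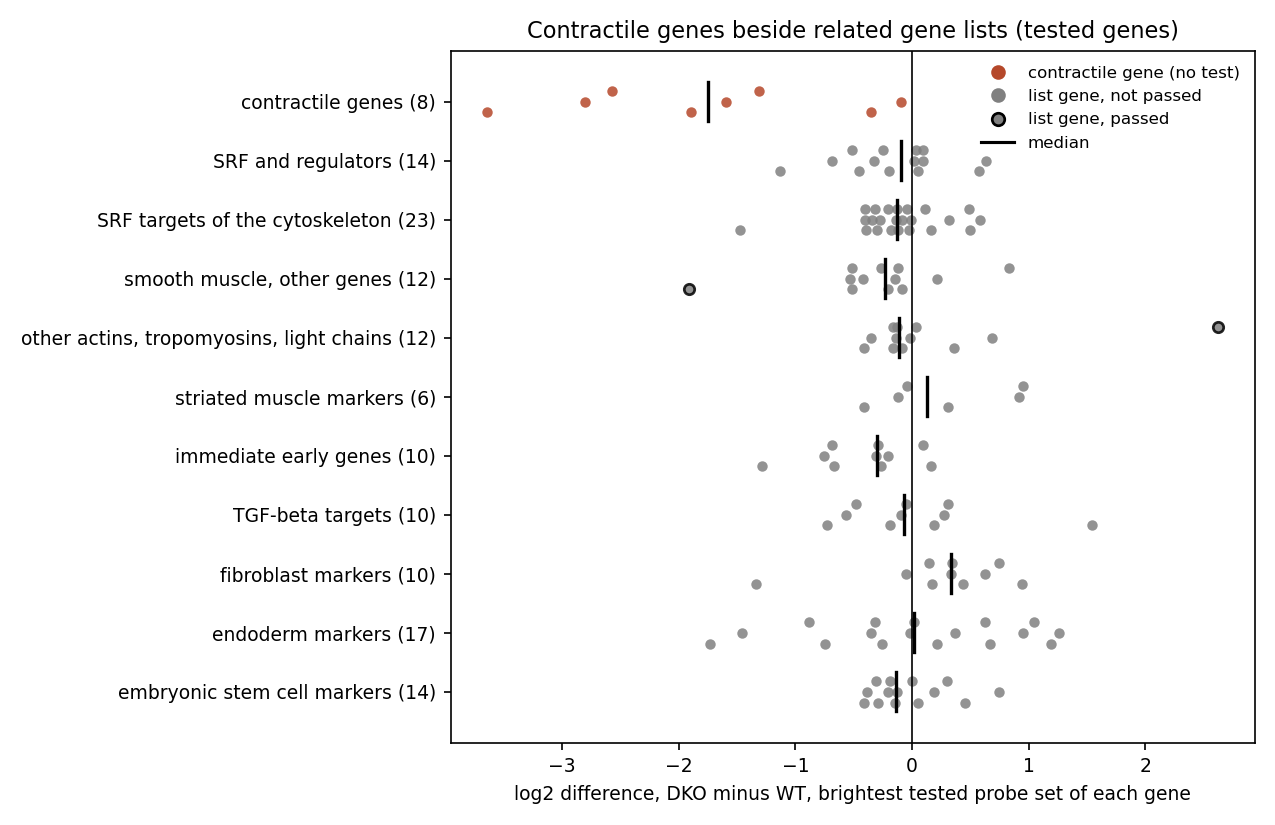
Log2 difference, DKO minus WT (horizontal axis), of each tested gene by its brightest tested probe set, for the 8 contractile genes and the 10 related lists, with the number of genes in brackets, medians as bars and a ring on list genes that passed by limma. The contractile genes, chosen with this contrast known, reach from -3.64 to -0.09, and the ringed genes are Itga8 and Myl7.

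Markers of other cells that carry contractile genes were examined beside these differences. Of 20 fibroblast markers 10 were tested and 0 passed by limma (1 at an unadjusted p under 0.05; 1 higher and 1 lower with the block), against 4.13% of all genes and 10.7% with the block, and 2 of the 10 were below 0. Their summed intensity was 3305 to 4004 in DKO and 2301 to 3301 in WT. Col3a1, Fap, Lum and Postn were under the filter on all 6 arrays, and Col1a1 had the largest difference, -1.34 (adjusted p = 0.0805; 0.00506 with the block). By the mean of all its tested probe sets Col1a1 differed by -0.76 (limma adjusted p = 0.302). Striated muscle markers were mostly dim: 12 of 24, Myod1, Myog and Nkx2-5 among them, were under the filter on all arrays, 6 were tested and 0 passed by limma (0 at an unadjusted p under 0.05; 0 with the block), beside the same 4.13% and 10.7%. Their summed intensity was 700 to 1272 in DKO and 447 to 1083 in WT, and Gata4, a transcription factor of heart and endoderm, had the largest difference at 0.95 (limma adjusted p = 0.533). In replicates 1 and 2 only, Gata4 differed by 0.15.

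Endoderm markers summed to 15820 to 23317 in DKO and 12308 to 21992 in WT, and 0 of 17 tested passed by limma (4 at an unadjusted p under 0.05; 1 lower with the block), against 4.13% of all genes and 10.7% with the block. Thbd, thrombomodulin, had the largest difference at -1.73 (adjusted p = 0.166; 0.00504 with the block). WT replicate 3 stood apart in this list: it was the lowest WT array for 14 of the 17 genes. Sox17, a transcription factor of endoderm, read 596, 645 and 927 in DKO against 676, 386 and 114 in WT. Cubn, an uptake receptor of visceral endoderm, read 188, 134 and 268 in DKO against 527, 826 and 97 in WT. The median log2 difference of the list was -0.09, -0.16 and 1.02 in replicates 1, 2 and 3, and 15 of the 17 genes were above 0 in replicate 3. WT replicate 3 is also the array on which most contractile probe sets were brightest, and without it the log2 differences were -3.39 for Tagln, -1.53 for Acta2, -1.29 for Cnn2 and -1.43 for the brightest Tpm2 probe set. The summed levels of the fibroblast, endoderm and striated muscle lists overlapped between the genotypes or were higher in DKO. A sum follows the brightest genes of its list, which for the fibroblast markers were Fn1 and Pdgfra. Pdgfra is on the endoderm list too. The part of other cells in the lower contractile genes was not tested beyond these values.

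The genes most like the contractile genes over the 6 arrays were found by Pearson's r with the mean of the centred log2 levels of the 8 measured genes. Among 10488 other genes these were Dysf, Peg3, Chd8, Fam126a and Esrp1, with r from 0.991 to 0.994 over 6 arrays of 2 genotypes. The 6 arrays share their genotypes and batches across all genes, so r is given as a description only. The mean it was taken with includes the dim DKO values of Actc1 and Myl9. Dysf read 8, 6 and 8 in DKO against 16, 17 and 21 in WT. It was under the filter on every DKO array, so its r rests on coarse values. Esrp1, an RNA splicing factor of epithelial cells, read 178, 78 and 115 in DKO against 684, 624 and 1164 in WT. Chd8, a chromatin remodeller, differed far less, by -0.33 log2 units, with a narrow spread in both genotypes.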

How the data were processed

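Total RNA (25 ng per sample) was amplified and biotin-labelled, per the labels' protocols. The authors deposited, for each array, whole-number intensities from 1 to 12861, read here as linear because no scale is stated. Tools listed in the submitters' processing notes, with no role given, are limma 2.16.5, GCRMA 2.14.1, GCOS and R 2.8.0. Rounding makes low values coarse, and the number of arrays limits precision. Arrays were assigned by sample title.

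Here values were converted to log2 with no pseudocount. Probe sets were named by the platform annotation and, by gene identifier, RefSeq (GRCm38.p6); 34958 had 1 gene, 932 several and 9211 none. Probe sets at a log2 of at least 4 on at least 3 arrays, array controls left out, were fitted with limma 3.58.1 in R 4.3.3 (lmFit, eBayes, two-sided), with Benjamini-Hochberg adjustment over 20841 probe sets. The procedure was tested on simulated data with independent normal errors. These held no batch, pairing or rounding, so that test does not bear on such limits of the data. A gene is read by its brightest tested probe set. A genotype under the filter on all 3 arrays gives a limit only. The p-values cover only the spread among these samples, and that spread may be technical.

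After the mean of each genotype was removed, arrays with the same number correlated at 0.427, 0.354 and 0.595. Arrays with unlike numbers correlated at -0.488 to 0.113. Removing the mean makes these values depend on one another, and replicate 3 is also the inferred batch. The titles are the only source of the numbers and do not say what they mean, so whether the samples are paired is not known. The SEs and p-values of the main fit do not account for any pairing. The replicate number was a block in an alternative. The genes and the 10 lists (179 entries, from general knowledge) were chosen with earlier results of these data known. The genes named are the 10 genes, Gsk3a, Gsk3b, Srf and its cofactors, Actb, Actg1, Acta1 and the 5 most alike. For each list up to 4 genes past the threshold, ranked by difference, were also named (failing any, its top gene by difference). Mylk, Tagln2, Tagln3, Tpm3, Tpm4, Myl12a, Myl12b, Sox17, Cubn and the genes listed by level only were named after their values were seen. Alternatives covered the block, the batch, the filter, a pseudocount of 16, quantile normalization, the variance model, the choice of probe set and each array left out.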

Additional observations from a re-analysis of the deposited data

How the results depend on the processing

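The fitted difference of the 11 tested contractile probe sets outside Cnn3 stayed below 0 under the alternatives run for them, while the sign of each of the 5 tested Cnn3 probe sets changed for at least 1 of the arrays omitted in turn. The median difference of the tested probe sets, -1.14, became -0.74 with no filter, -0.63 with a filter at a log2 of 6, which drops 4 of the 16, and -1.63 with the mean of all probe sets of a gene. The number of probe sets that passed was 675, and 1995 with the replicate block, 1117 with the batch as a block, 440 in replicates 1 and 2 only, 373 with the filter at 6, 31 without moderation and 290 to 604 when an array was left out. Genes numbered 434, and 1123, 687, 247 (no filter), 253 (filter at 6), 22 (no moderation) and 184 to 374 (an array left out). Of the contractile probe sets 6 passed, and 10 with the replicate block, 3 in replicates 1 and 2 only, 0 by the linear model without moderation (9 at an unadjusted p under 0.05) and 2 to 5 with an array left out; 3 without DKO replicate 1 and 2 without DKO replicate 2 or WT replicate 2. Of the 123 list genes 2 passed, and 9 with the replicate block, 4 with the batch as a block, 1 with the filter at 6 or a pseudocount of 16, 0 with no filter or without moderation (17 and 14 at an unadjusted p under 0.05) and 0 to 4 with an array left out, 0 of them without DKO replicate 1. Actg1 changed sign to 0.046 in replicates 1 and 2 only, and Mrtfa to -0.013 there; with an array left out Mrtfa ran from -0.035 to 0.056, below 0 without DKO replicate 3 or WT replicate 1. With a pseudocount of 16 the fitted difference was -2.81 for Tagln, -1.15 for Actc1 and -1.47 for Myl9. Except where fewer genes or samples entered, the cause was not tested. Intensities near the filter limit what can be said of Actc1, Myl9, Cnn1, Actg2 and, in DKO, Tagln and Acta2.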
